A study of Mus musculus with 42 samples.

Results

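Rpl22, the gene that carries the RiboTag allele, and Rpl22l1, its paralog, were followed in liver libraries made with 7 RNA-seq protocols. Both were chosen by name and not by a measured value, with earlier results of these data known. They are 2 of the 47729 genes in the deposited tables. Exon counts and RPKM values of both genes were given in all 42 libraries. Rpl22 encodes a protein of the large ribosomal subunit, and Rpl22l1 encodes a close relative that can take its place there. As background, Rpl22 is known to hold down the expression of Rpl22l1, so that the paralog rises where Rpl22 is lost, and it is needed for the development of alpha-beta T cells. Both proteins also bind RNA outside the ribosome and are known to act on the splicing of other transcripts. In the RiboTag allele, Cre removes the last exon of Rpl22 and leaves a second copy of it that ends in an HA tag, so ribosomes of cells with Cre can be pulled down with an antibody against HA.

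The libraries came from 3 untreated mice of the genotype Gfi1Cre/+;Rpl22HA/HA. Each liver gave RNA of the whole homogenate (input, no antibody) and RNA brought down with the HA antibody (IP), and each RNA went into all 7 protocols, which made 14 groups of 3 libraries. NEB (NEBNext Ultra Directional), NuG (NuGEN Ovation V2), SMTer (SMARTer Stranded), SMTseq4 (SMART-Seq v4) and Tru4 (TruSeq v2) started from 4 ng of RNA, SMTseq0.25 from 0.25 ng with the kit of SMTseq4, and Tru70 from 70 ng with the kit of Tru4. The growth protocol gives the age as P30 and the stage label as P1. Cre was expressed from a knock-in at 1 allele of Gfi1, a transcription repressor of blood cell development, and all mice carried the RiboTag allele on both copies of Rpl22. No mouse without Cre or without the tag was analysed here, so values of Rpl22 in this allele cannot be set against the unmodified gene. In bulk RNA, fewer cells of a type and less RNA per cell cannot be told apart.

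The fractions of mouse 3 were exchanged in NEB, NuG, SMTer and Tru4, 8 libraries in all, and a value with the labels as deposited is given where it changed a call. In NEB, NuG and Tru4 the summed level of 6 Kupffer cell markers was 149.4 to 301 CPM (exon counts of a gene over the exon total of the library, scaled alike in all libraries) in the libraries of mouse 3 labelled IP and 7339 to 15294 CPM in those labelled input. The libraries of mice 1 and 2 had 6047 to 16433 CPM where labelled IP and 159 to 296 CPM where labelled input. In Tru70, where no library was exchanged, 6 of 6 Kupffer markers were higher and 6 of 6 hepatocyte markers lower in IP than in input, with median log2 differences of 4.82 and -2.10. The exon counts summed to 3223153 to 45466334 per library outside SMTer and to 464199 to 762562 in SMTer. There the exon counting assigned 76.8% to 93.8% of the read pairs with a single alignment to no gene. How it treated strand is not stated, so whether such pairs lay on an exon is not known. Gfi1 itself had no count in 18 of 21 input libraries and 7 of 21 IP libraries, with at most 49 counts in an IP library.

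Rpl22 (ENSMUSG00000028936) lies on the plus strand of GRCm38 at chr4:152325742-152334071 and has no other annotated gene over its 8330 bases. Rpl22l1 (ENSMUSG00000039221) lies on the plus strand at chr3:28805436-28807424, over 1989 bases. The last coding exon, exon 4 of 4 in both, is shown because it is the exon that the RiboTag allele duplicates and because its likeness to the paralog bears on how reads were assigned. The coding parts, at chr4:152332280-152332421 and chr3:28807187-28807328 on the plus strand, were read from the reference genome and hold no tag. Capitals mark the bases that are the same in both genes.
Rpl22: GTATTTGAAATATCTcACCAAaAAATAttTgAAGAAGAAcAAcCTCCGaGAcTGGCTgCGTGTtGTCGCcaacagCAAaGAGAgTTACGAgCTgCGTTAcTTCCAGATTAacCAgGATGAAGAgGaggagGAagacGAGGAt
Rpl22l1: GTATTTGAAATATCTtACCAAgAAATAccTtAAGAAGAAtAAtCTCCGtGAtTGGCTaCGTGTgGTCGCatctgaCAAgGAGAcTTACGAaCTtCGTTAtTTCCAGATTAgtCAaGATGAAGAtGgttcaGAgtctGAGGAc
The parts shown are 142 bases long without the stop codon and share 106 bases (74.6%). The longest run without a difference was 15 bases, against a read length of 60 bases. Over the whole coding sequences, 128 codons in Rpl22 and 122 in Rpl22l1, 257 of 384 bases were identical (66.9%). Within this exon a read of that length thus held differences between the paralogs.

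By exon counts, Rpl22 was highest in Tru70, Tru4 and NEB and lower in NuG and both SMART-Seq v4 protocols. In Tru70 input the level of Rpl22 was 87.5, 73.5 and 81.9 CPM in mice 1, 2 and 3, and in Tru70 IP it was 149.99, 82.5 and 77.8 CPM. Tru4 input had 75.9, 68.9 and 80.7 CPM, and Tru4 IP had 139.9, 67.4 and 67.9 CPM. NEB input had 80.4, 97.2 and 66.1 CPM, and NEB IP had 93.3, 91.3 and 64.6 CPM. The input libraries of these 3 protocols overlapped and were all above those of the other 4.

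NuG input had 28.1, 23.9 and 28.9 CPM of Rpl22, and NuG IP had 74.5, 38.3 and 30.4 CPM. SMTseq0.25 input had 29.1, 22.9 and 26.1 CPM, and its IP libraries had 81.0, 33.2 and 51.1 CPM. SMTseq4 input had 25.2, 20.4 and 24.7 CPM, and SMTseq4 IP had 72.9, 31.4 and 34.8 CPM. These input groups overlapped with each other, and in all 3 protocols each IP library was above each input library of the protocol. On this scale the median gene was also higher in IP, by a log2 of 1.60 in NuG, 0.54 in SMTseq0.25 and 0.56 in SMTseq4. How many genes separated in this way was not counted. SMTer had 0 to 7 counts of Rpl22 in a library, so its exon counts were too few to compare.

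By RPKM, which follows the length of the gene from start to end with introns, Rpl22 ranged from 1.48 to 10.7 over the 42 libraries. The mean RPKM in input was 7.55 ± 1.59 in NEB, 6.97 ± 0.20 in Tru70, 5.89 ± 0.35 in Tru4 and 4.60 ± 1.77 in SMTer (SD, n = 3). It was 2.54 ± 0.18 in SMTseq0.25, 2.41 ± 0.24 in SMTseq4 and 2.39 ± 0.28 in NuG. Neighbours in this order overlapped in their libraries except Tru70 and Tru4. In IP the order was Tru70, NEB, Tru4, NuG, SMTseq0.25, SMTer and SMTseq4, with means from 7.74 ± 2.59 to 2.48 ± 0.82 (SD, n = 3), and Tru4 was the one protocol that did not overlap with the next. SMTer was thus near the middle of the input order by RPKM, from 739 to 2114 reads over the gene, while the exon counts of the same libraries were 0 to 6.

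**Figure D1:**
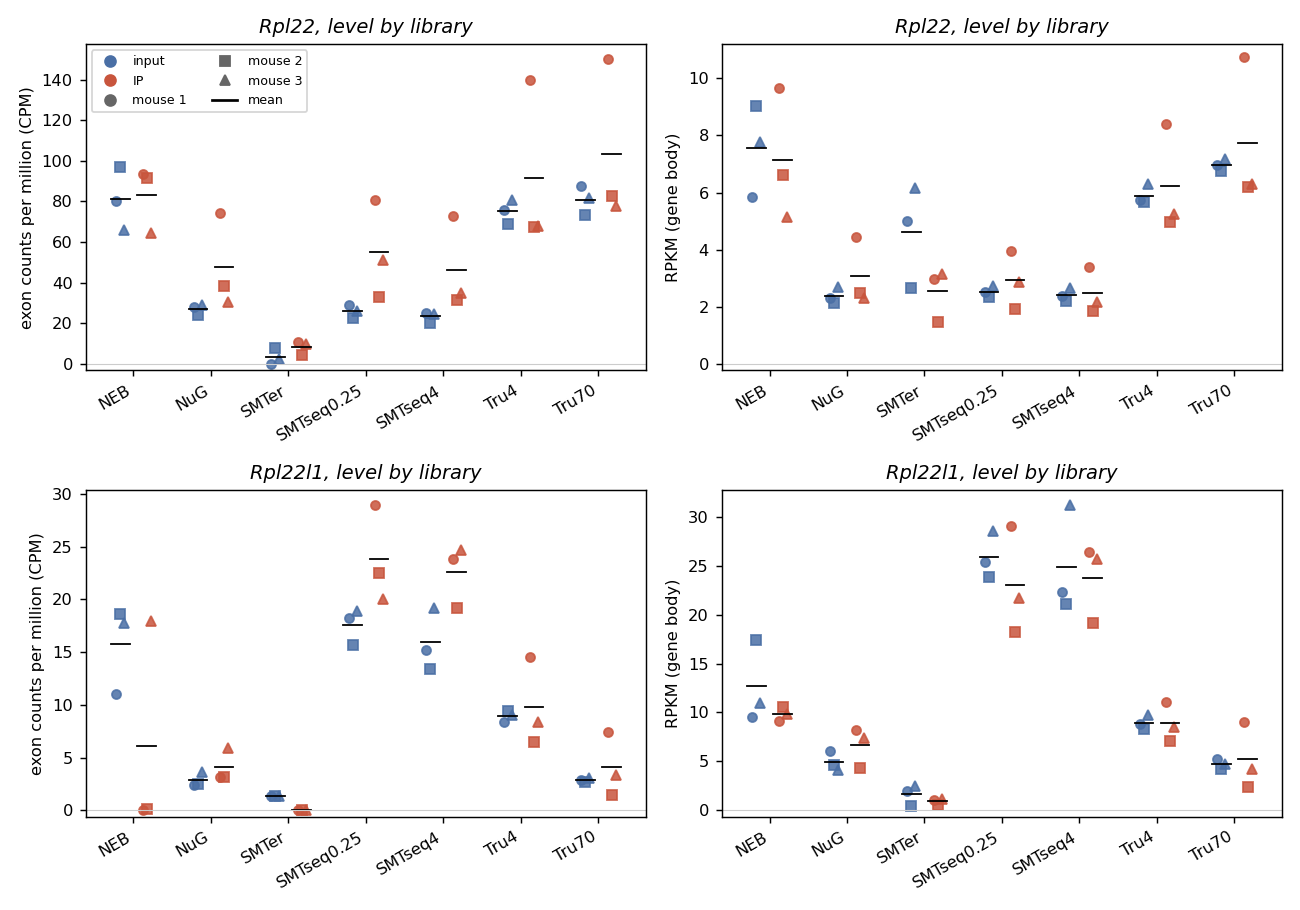
Level of Rpl22 and Rpl22l1 in each of the 42 libraries by protocol, as CPM of exon counts and as RPKM, with input in blue, IP in red, a marker shape for each mouse and a line at the mean of 3. Rpl22 in CPM reaches 149.99 in the Tru70 IP library of mouse 1, and Rpl22l1 in RPKM is highest in both SMART-Seq v4 protocols, at 18.2 to 31.2.

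Rpl22l1 followed another order of protocols. In SMTseq0.25 its level was 18.3, 15.7 and 18.9 CPM in input and 28.9, 22.5 and 20.1 CPM in IP. SMTseq4 had 15.2, 13.4 and 19.2 CPM in input and 23.9, 19.2 and 24.7 CPM in IP. The IP libraries of SMTseq0.25 were all above its input libraries, while in SMTseq4 1 IP library of 19.2 CPM overlapped with the highest input library. By library totals Rpl22l1 was higher in IP by a log2 of 0.44 in SMTseq0.25 and 0.50 in SMTseq4. The median gene was higher by 0.54 and 0.56. Tru4 had 8.40, 9.46 and 9.02 CPM in input and 14.6, 6.48 and 8.37 CPM in IP.

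In Tru70 the level of Rpl22l1 was 2.91, 2.69 and 3.05 CPM in input and 7.42, 1.48 and 3.34 CPM in IP. The IP libraries of Tru70 thus lay on both sides of its input libraries. NuG had 2.41, 2.49 and 3.62 CPM in input and 3.11, 3.20 and 5.89 CPM in IP, which rest on 16 to 20 counts a library. SMTer had 1 count of Rpl22l1 in each input library and 0 counts in each IP library, both below the 3 counts taken here as the lowest level that could be measured.

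NEB was the protocol in which the libraries of Rpl22l1 differed most. Its input libraries had 245, 490 and 397 exon counts in mice 1, 2 and 3, and its IP libraries had 1, 3 and 300. In CPM these were 10.98, 18.6 and 17.7 in input and 0.0661, 0.11 and 18.0 in IP. The RPKM values of the same IP libraries were 9.09, 10.5 and 9.83, from 1302, 2118 and 1217 reads over the gene, and did not set mice 1 and 2 apart. The IP library of mouse 3 is one whose fraction was exchanged. What took the exon counts of mice 1 and 2 to near 0 was not tested.

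By RPKM, Rpl22l1 was highest in SMTseq0.25, with 25.9 ± 2.4 in input (SD, n = 3), and in SMTseq4, with 24.9 ± 5.5. Those libraries overlapped with each other and were above those of every other protocol. NEB had 9.58, 17.4 and 11.01 RPKM in input, Tru4 had 8.79, 8.32 and 9.78, and NuG had 6.01, 4.66 and 4.08. Tru70 had 5.22, 4.21 and 4.77 RPKM, which overlapped with NuG. SMTer had 1.96, 0.485 and 2.52 RPKM.

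Whether either gene changed with the immunoprecipitation was tested within each protocol, 3 IP against 3 input libraries. Neither member passed an adjusted p of 0.05 in any of the 7 protocols, by edgeR's quasi-likelihood test on exon counts or by limma on log2(RPKM + 0.1), and DESeq2 called neither. At an unadjusted p under 0.05, 1 of these tests passed, that of Rpl22 in NuG by exon counts. SMTer could be tested by RPKM alone, since both genes were under the filter on low counts there. Of all genes tested by exon counts, 11.2% passed in NEB, 44.9% in NuG, 36.9% in SMTseq0.25, 59.2% in SMTseq4, 50.1% in Tru4 and 34.8% in Tru70. By RPKM, 8.19% passed in NEB, 48.1% in NuG, 11.7% in SMTer, 35.3% in SMTseq0.25, 46.5% in SMTseq4, 36.4% in Tru4 and 32% in Tru70. In data simulated on the libraries of Tru70, edgeR recovered 6.25% of genes changed by 1 on the log2 scale and 56.2% of those changed by 2. On the libraries of NuG it recovered 28.1% and 77.9%. The Tru70 simulation changed 100 genes by each size among 14707, a far smaller share than the 34.8% called in the data. The adjusted threshold was therefore stricter there, and these values do not give the power for a member. A change of 1 in a member that did not pass is not shown to be absent.

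In Tru70, the protocol with the most RNA, the log2 difference of IP from input was -0.03 (SE 0.32) for Rpl22 and 0.14 (SE 0.80) for Rpl22l1, with adjusted p of 0.963 and 0.921 by edgeR. In Tru4 it was -0.16 (SE 0.35) and -0.33 (SE 0.36). SMTseq0.25 gave 0.64 (SE 0.36; adjusted p = 0.213 by edgeR) for Rpl22 and -0.02 (SE 0.30) for Rpl22l1, and SMTseq4 gave 0.48 (SE 0.34) and -0.04 (SE 0.21). Rpl22 was above 0 in both SMART-Seq v4 protocols without passing the test, and in SMTseq4 it was -0.046 without mouse 1 and 0.00 by RPKM. Rpl22l1 was near 0 in both.

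In NuG the difference was -0.72 (SE 0.31; adjusted p = 0.0752 by edgeR) for Rpl22 and -1.08 (SE 0.54; adjusted p = 0.119 by edgeR) for Rpl22l1, although each gene had more CPM in IP than in input in 3 of 3 mice. The edgeR fit scales libraries so that most genes do not change (TMM). With the library totals alone Rpl22 in NuG turned to 0.84 (SE 0.30; adjusted p = 0.0200 by edgeR). In that fit 75.7% of all genes passed and the median of all genes was 1.60. With the mouse as a block Rpl22 in NuG passed, at -0.83 (adjusted p = 0.0064 by edgeR). Without the block 44.9% of all genes passed in NuG. With the fractions as labelled Rpl22 in NuG was 0.20. In NEB the difference was -0.41 (SE 0.35) for Rpl22 and -1.92 (SE 1.94) for Rpl22l1, where the large error comes with the counts of 1, 3 and 300.

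The scaling moved the members with all other genes. Library totals put Rpl22 at 1.08 in SMTseq0.25 (adjusted p = 0.0334 by edgeR) and at 0.98 in SMTseq4 (adjusted p = 0.0168 by edgeR). In these fits 38.5% and 60.3% of all genes passed, and the medians of all genes were 0.54 and 0.56. Relative to the median of all genes, which takes out any shift that all genes share, Rpl22 with TMM was at 0.58 in SMTseq0.25, 0.47 in SMTseq4, -0.74 in NuG and 0.00 in Tru70. Rpl22l1 was at -1.10 in NuG, -0.08 in SMTseq0.25 and 0.17 in Tru70.

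By RPKM with limma, the log2 differences of Rpl22 were -0.11 in NEB, 0.30 in NuG, -0.82 in SMTer, 0.15 in SMTseq0.25, 0.00 in SMTseq4, 0.04 in Tru4 and 0.10 in Tru70. Those of Rpl22l1 were -0.32, 0.39, -0.61, -0.20, -0.06, -0.03 and -0.07 in the same order. The median of all genes on this scale was 0.90 in NuG, so both members lay below it there, at -0.60 and -0.52 relative to it. In SMTer, edgeR on the whole reads that the RPKM values give back, a fit added after seeing the data, put Rpl22 at -1.25 (adjusted p = 0.0024 by edgeR) and Rpl22l1 at -1.15 (adjusted p = 0.0402 by edgeR), where 41.6% of all genes passed. Those reads include introns. Rpl22 was lower in IP by RPKM in 3 of 3 mice of SMTer, and with the fractions as labelled its log2 difference by limma was -0.20.

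**Figure D2:**
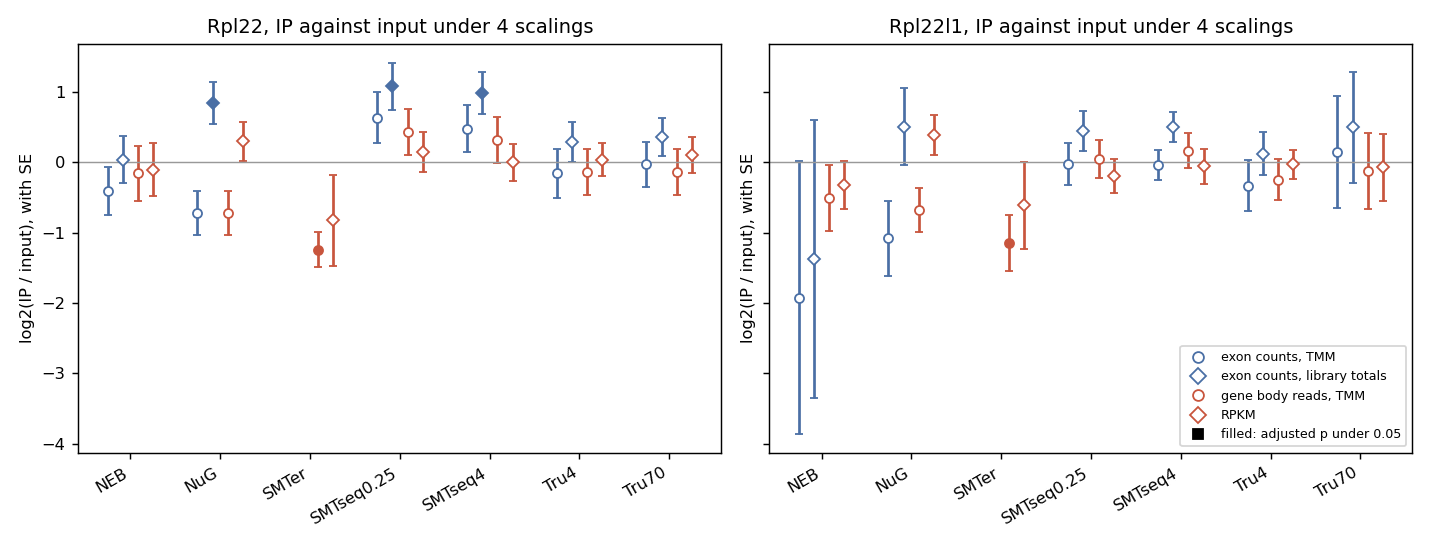
Log2 difference of IP from input for Rpl22 and Rpl22l1 by protocol under 4 scalings, with SE bars and filled symbols for an adjusted p under 0.05. Rpl22 in NuG moves from -0.72 with TMM to 0.84 with library totals, and in SMTer the reads over the gene body put both genes below 0.

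Mouse 1 stood apart from the other mice in Rpl22. Its IP library had the highest CPM of Rpl22 in 7 of 7 protocols and the highest RPKM in 6 of 7. In SMTer the CPM rests on 5, 3 and 7 counts in mice 1, 2 and 3, and the RPKM was highest in mouse 3. Outside SMTer, the IP level in mouse 1 was 1.20 times the mean of the other mice in NEB, 1.87 times in Tru70, 1.92 times in SMTseq0.25, 2.07 times in Tru4, 2.17 times in NuG and 2.21 times in SMTseq4. Input did not show this order, since mouse 1 was highest by CPM in 3 of 7 protocols and by RPKM in 0 of 7. The libraries of a mouse came from the same RNA, so the protocols repeat a measurement of 3 mice and are not further animals.

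Within a mouse, the CPM of Rpl22 in IP over that in input was above 1 in 6 of 6 protocols in mouse 1, with a median of 2.25 and a range from 1.16 to 2.90. It was above 1 in 4 of 6 protocols in mouse 2, with a median of 1.29, and in 3 of 6 in mouse 3, with a median of 1.01. By RPKM the medians over the same protocols were 1.55, 0.864 and 0.850, and the ratio was above 1 in 6, 1 and 1 of 6 protocols. Without mouse 1, Rpl22 was lower in IP in NuG (-1.28, adjusted p = 0.0043 by edgeR) and in Tru4 (-0.71, adjusted p = 0.0089 by edgeR), as was Rpl22l1 in Tru4 (-0.88, adjusted p = 0.0193 by edgeR). These fits had 2 IP and 2 input libraries, and mouse 1 was singled out by its Rpl22 values. Over all genes, 4237 to 4720 were called in NuG and 5718 to 8117 in Tru4 when 1 of the mice was left out. With all mice 44.9% and 50.1% of genes passed there. The Rpl22l1 count ratio in mouse 1 was above 1 in 5 of 6 protocols, with a median of 1.58, and NEB was the exception.

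**Figure D3:**
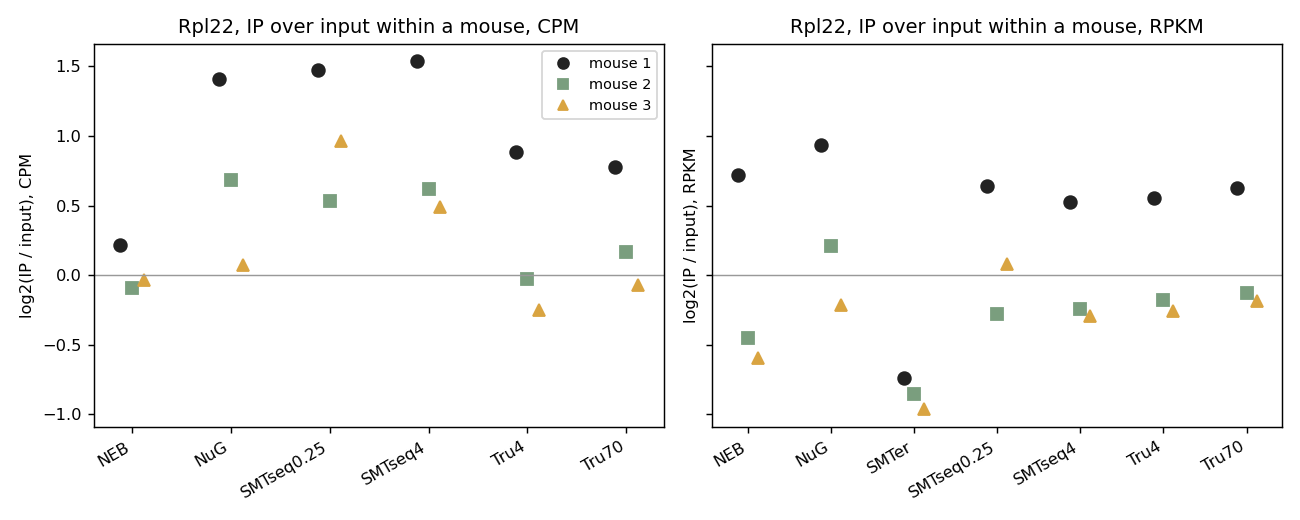
Log2 ratio of IP to input for Rpl22 within each mouse by protocol, from CPM without SMTer and from RPKM with it. Mouse 1 is above 0 in 6 of 6 protocols on both scales outside SMTer, and mice 2 and 3 lie on both sides of 0.

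Other genes stood apart in mouse 1 with Rpl22. Outside SMTer, the summed CPM of the large-subunit ribosomal protein genes in IP, Rpl22 among them, was highest in mouse 1 in 6 of 6 protocols. It was at a median of 1.59 times the mean of the other mice. That of the small-subunit genes was highest in mouse 1 in 5 of 6, at a median of 1.29 times. The erythroid list was highest in mouse 1 in 5 of 6 protocols (median 1.34 times) and the neutrophil list in 5 of 6 (1.29 times). In Tru70 IP the erythroid genes took 22.6%, 16.3% and 12.9% of all exon counts in mice 1, 2 and 3. The Kupffer list was lowest in mouse 1 in 6 of 6 protocols (0.664 times), the T cell list in 5 of 6 (0.741 times) and the B cell list in 5 of 6 (0.590 times). The sinusoidal endothelium list was lowest in mouse 1 in 5 of 6 and highest in 1 of 6 (0.811 times). The hepatocyte list was lowest in 3 of 6 and highest in 2 of 6 (0.973 times). The part of these cell types in the level of Rpl22 was not tested.

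As a share of all cytosolic ribosomal protein counts, Rpl22 was 0.801% to 2.98% outside SMTer, where 79 such genes together held 0.110% to 0.917% of exon counts. Per kilobase of exon it ranked 16th to 41st of the 79. This share in IP over that in input had a median of 1.16 in mouse 1 and was above 1 in 5 of 6 protocols. In mouse 2 the median was 0.895 and in mouse 3 it was 0.711, each above 1 in 1 of 6 protocols. These counts leave out reads that align to several places, pseudogenes among them, and the exon length merges all transcripts of a gene. On this measure the tagged gene did not stand at the top of its family. In mouse 1 its ratio of IP to input was 1.16 against the family where it was 2.25 by CPM. On the CPM scale the median gene was also higher in IP over the 3 mice, by a log2 of 0.41 in Tru70 to 1.60 in NuG.

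In SMTseq4 the levels of the members differed from Tru70 in opposite directions. Against Tru70, in fits of 12 libraries by edgeR, SMTseq4 had 0.302 times the Rpl22 in input (log2 -1.73, SE 0.38; adjusted p = 0.0049 by edgeR) and 5.77 times the Rpl22l1 (log2 2.53, SE 0.49; adjusted p = 0.0022 by edgeR), where 24.5% of all genes passed. In IP it had 0.449 times the Rpl22 (log2 -1.15, SE 0.37; adjusted p = 0.0338 by edgeR) and 5.32 times the Rpl22l1 (log2 2.41, SE 0.49; adjusted p = 0.0030 by edgeR), where 28.5% passed. Rpl22 was lower and Rpl22l1 higher than in Tru70 in both fractions.

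SMTseq0.25 gave the same directions. In input Rpl22 was 0.328 times its level in Tru70 (log2 -1.61, SE 0.37; adjusted p = 0.0072 by edgeR) and Rpl22l1 6.20 times (log2 2.63, SE 0.54; adjusted p = 0.0034 by edgeR), with 17.2% of all genes past the threshold. In IP Rpl22l1 was 5.72 times its level in Tru70 (log2 2.52, SE 0.54; adjusted p = 0.0053 by edgeR), with 16.8% of genes past it. Rpl22 in IP did not pass, at 0.536 times (log2 -0.90, SE 0.36; adjusted p = 0.106 by edgeR), and passed with the mouse as a block (log2 -0.92, adjusted p = 0.0209 by edgeR). Leaving out mouse 1 kept the 7 SMART-Seq v4 calls. Without mouse 3 all 7 were lost, with adjusted p from 0.0662 to 0.156 by edgeR, and without mouse 2 4 of 7 were lost, with adjusted p from 0.0574 to 0.157 by edgeR. The directions stayed. Rpl22l1 in IP moved most, to 3.19 in SMTseq0.25 and 3.22 in SMTseq4 without mouse 1. The SMART-Seq v4 libraries were also sequenced at another centre and at another read length before trimming, and kit, centre and read length cannot be told apart.

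Within the SMART-Seq v4 and TruSeq kits, libraries from different amounts of RNA were compared. Between 0.25 ng and 4 ng of the SMART-Seq v4 kit, Rpl22 differed by 0.10 in input (SE 0.39) and 0.26 in IP (SE 0.39) on the log2 scale, and Rpl22l1 by 0.09 (SE 0.25) and 0.11 (SE 0.25). Of all genes, 0.0125% passed in that comparison in input and 0% in IP. The Tru4 libraries also went without size selection, with a smaller end-repair reaction and more PCR cycles than Tru70, so amount and protocol cannot be told apart there. Between 4 ng and 70 ng of the TruSeq kit, Rpl22 differed by -0.04 in input (SE 0.37) and -0.19 in IP (SE 0.37). Rpl22l1 was higher in Tru4, 3.26 times in input (log2 1.70, SE 0.57; adjusted p = 0.324 by edgeR) and 2.33 times in IP (log2 1.22, SE 0.56; adjusted p = 0.289 by edgeR), where 0.162% and 1.08% of all genes passed. The Tru4 input libraries of Rpl22l1 did not overlap with those of Tru70, and this difference did not pass over all genes.

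In NuG, Rpl22 in IP was 0.397 times its level in Tru70 (log2 -1.33, SE 0.35; adjusted p = 0.0049 by edgeR), where 47.5% of all genes passed, and with the fractions as labelled it was -0.84 (adjusted p = 0.188 by edgeR). Rpl22 in NuG input was -0.58 (SE 0.34; adjusted p = 0.203 by edgeR), where 38.3% passed, and Rpl22l1 was 0.98 (SE 0.69) in input and -0.31 (SE 0.68) in IP. In NEB, Rpl22 was -0.16 (SE 0.34) in input and -0.50 (SE 0.34) in IP, and Rpl22l1 was 2.27 (SE 1.63) and 0.23 (SE 1.56), where 0.815% and 1.28% of all genes passed. Whether the change from input to IP differed from that in Tru70 was tested in the same fits, and neither member passed by edgeR, with 0 tests at an unadjusted p under 0.05. The shares of all genes in those tests were 0.00652% for NEB, 0.279% for NuG, 0.167% for SMTseq0.25, 0.37% for SMTseq4 and 0% for Tru4.

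**Figure D4:**
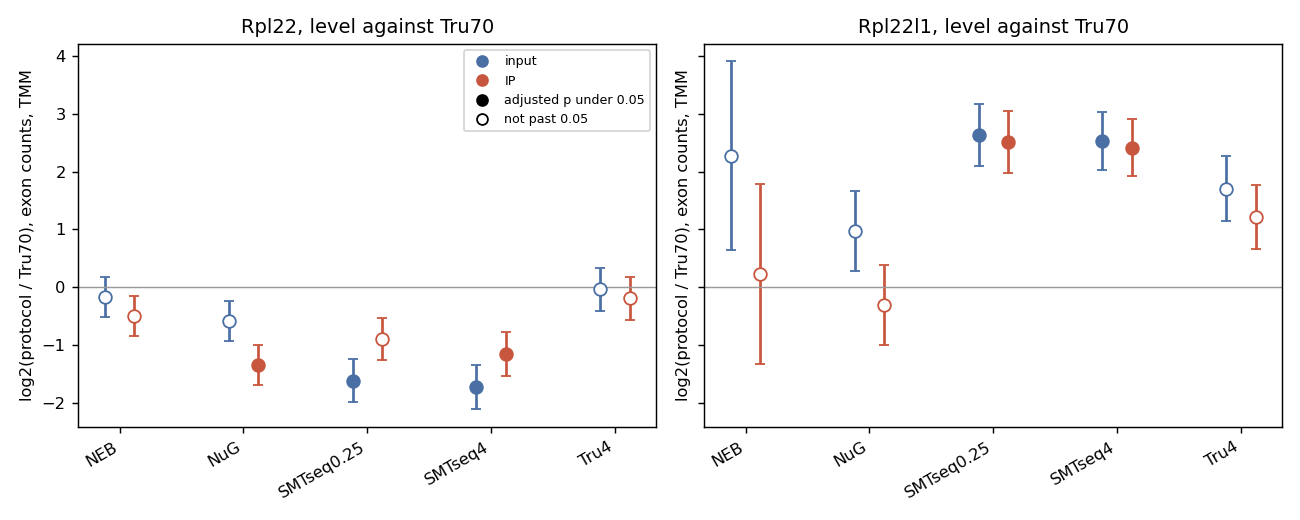
Log2 difference in level from Tru70 for Rpl22 and Rpl22l1 in 5 protocols, input and IP, by edgeR on exon counts with SE bars and filled symbols for an adjusted p under 0.05. Both SMART-Seq v4 protocols lie below 0 for Rpl22 and above 2 for Rpl22l1.

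The ratio of Rpl22l1 to Rpl22 within a library, which does not depend on how libraries are scaled, followed the protocol. In RPKM the ratio was 10.2 ± 0.26 in SMTseq0.25 input and 8.09 ± 1.14 in its IP (SD, n = 3), and 10.2 ± 1.25 and 9.96 ± 2.05 in SMTseq4. It was 2.09 ± 0.54 and 2.25 ± 0.79 in NuG, 1.66 ± 0.26 and 1.48 ± 0.49 in NEB, and 1.52 ± 0.04 and 1.46 ± 0.16 in Tru4. Tru70 had 0.679 ± 0.064 in input and 0.629 ± 0.230 in IP, and SMTer had 0.328 ± 0.127 and 0.356 ± 0.003. The Tru4 libraries were all above the Tru70 libraries of the same kit.

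The order of the paralogs depended on the length used. In RPKM, Rpl22l1 was above Rpl22 in 29 of 42 libraries. With all annotated transcripts merged, Rpl22 has 2911 exonic bases in 8330, while Rpl22l1 is exonic over its 1989 bases. On these merged lengths, counting introns lowers Rpl22 alone. The Rpl22l1 transcript whose last exon is shown above has 552 spliced bases, so the 1989 bases also hold introns of that transcript. The ratios per kilobase of exon given next rest on the merged lengths. With the same reads per kilobase of exon the ratio was above 1 in 13 of 42 libraries, the 12 SMART-Seq v4 libraries and 1 NuG library of IP. With exon counts per kilobase of exon it was above 1 in 4 of 36 libraries outside SMTer, all of SMART-Seq v4, and in Tru70 it was 0.0523 ± 0.0032 in input. Outside SMTer, both SMART-Seq v4 protocols had the highest ratios on each scale.

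The ratio in IP was set against that in input by an exact two-sided permutation test, whose smallest p with 3 against 3 libraries is 0.1, so no difference could pass it and its p does not tell the protocols apart. SMTseq0.25 had that p, with a log2 ratio lower by 0.34 in IP (SE 0.12) and lower in 3 of 3 mice (exact permutation p = 0.1; 0.70 adjusted over the 7 protocols). The log2 ratio in IP minus that in input was -0.21 (SE 0.33) in NEB, 0.09 (SE 0.35) in NuG, 0.21 (SE 0.38) in SMTer, -0.05 (SE 0.20) in SMTseq4, -0.07 (SE 0.09) in Tru4 and -0.18 (SE 0.34) in Tru70. These 6 differences were all within 1 SE of 0, with exact permutation p from 0.6 to 1.0.

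**Figure D5:**
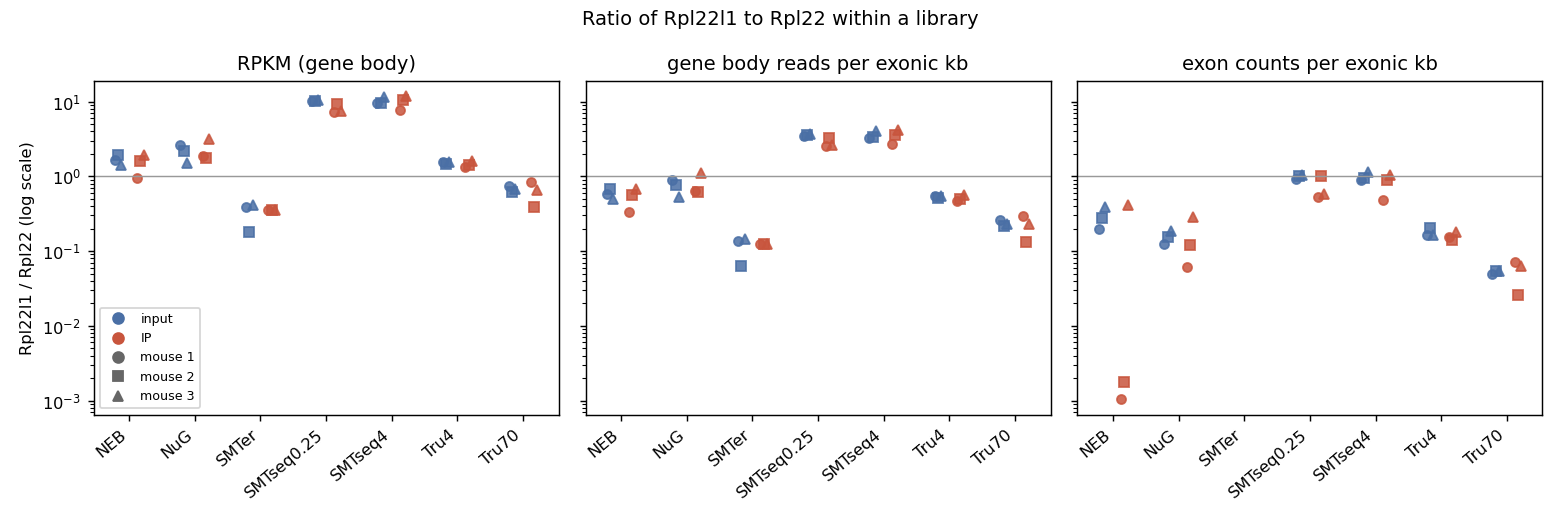
Ratio of Rpl22l1 to Rpl22 in each library on 3 length scales, on a log axis with a line at 1. Outside SMTer, the SMART-Seq v4 libraries are highest on each scale, at 7.35 to 11.8 in RPKM, and the Tru70 libraries lie below 1 on all 3.

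Rpl22l1 had more reads over the gene for each exon count than Rpl22. The reads over the gene that the RPKM values give back count each mate and reads with several alignments, so a counted pair gives 2 such reads, and the median over all genes in a library outside SMTer was 1.99 to 2.75. Rpl22 had 1.70 to 4.10 reads per count. Rpl22l1 had 3.79 to 17.9, apart from the NEB IP libraries of mice 1 and 2, which had 1302 and 706. Of the 493 windows of 60 bases in its transcript, 310 (62.9%) were found exactly in other annotated genes, most of them in the processed pseudogene Gm15421, with 264 (53.5%). Gm15421 had a median of 915 exon counts outside SMTer, more than the median of 279 of Rpl22l1. The antisense gene Gm33051 shares 159 exonic bases with Rpl22l1, all in exon 4, and had 0 exon counts in the 36 libraries outside SMTer and 0 to 37 in SMTer. For Rpl22, 73 of 1992 windows (3.66%) were found elsewhere, the most in Rpl22-ps1, with 33. Exon counts and RPKM of Rpl22l1 are therefore both uncertain, because a read shared with Gm15421 or Gm33051 cannot be assigned to 1 of them. The authors state that strand was not analysed, which does not say how either set of values was counted. In SMTer, Rpl22l1 had 1 exon count in each input library beside 32 to 207 reads over the gene. Its IP libraries had 0 counts beside 32 to 94 reads. The part of strand in this was not tested.

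The levels against Tru70 were computed again with the reads over the gene, which was chosen after seeing the data. By edgeR on those reads, Rpl22l1 was 2.47 higher in SMTseq0.25 input and 2.39 higher in SMTseq4 input on the log2 scale, with adjusted p of 0.0022 and 0.0020. Rpl22 was -1.44 and -1.53, with adjusted p of 0.0110 and 0.0072 by edgeR. In the same comparisons by exon counts, 17.2% and 24.5% of all genes passed.

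Few of the other ribosomal protein genes passed the test between IP and input in Tru70. With Rpl22 left out, 43 of 46 large-subunit genes could be tested by exon counts, of which 0 were higher and 4 lower in IP, with a median log2 difference of 0.15. Of 32 small-subunit genes 1 was higher and 3 were lower, with a median of 0.12, against -0.03 over all genes and 34.8% of all genes called. These calls depended on the readout. By RPKM 6 of 46 large-subunit genes were higher and 0 lower, and 5 of 32 small-subunit genes were higher and 1 lower, where 32% of all genes were called. With library totals in place of TMM, chosen after seeing the data, 8 of 43 and 7 of 32 were higher and 0 and 1 lower, where 35.9% were called. Rps2, a protein of the small subunit, fell by 1.21 with TMM (SE 0.20; adjusted p = 0.0017 by edgeR). Rpl9, of the large subunit, was at 2.78 (SE 0.98; adjusted p = 0.0548 by edgeR). From the highest change down, Rpl22 ranked 45th of 77 in Tru70, with Rpl22l1 counted among them. Rpl22 was 16th of 79 in SMTseq0.25 and 21st of 79 in SMTseq4.

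In NuG the direction of these genes changed with the scaling. With TMM, 13 of 37 large-subunit genes and 10 of 26 small-subunit genes were lower in IP and 0 were higher, with medians of -0.61 and -0.60, where 44.9% of all genes were called. Rpl22 at -0.72 ranked 37th of 65 there. By RPKM, 16 of 46 and 18 of 32 were higher and 1 and 0 lower, with medians of 0.51 and 0.65, where 48.1% of all genes were called. With library totals, 21 of 37 and 18 of 26 were higher and 0 lower, with medians of 0.96 and 0.98, where 75.7% were called. The medians of all genes were 0.02, 0.90 and 1.60 on these scales, so both lists, like Rpl22, lay below the median gene on each of them.

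In SMTseq4 with TMM, 3 of 45 large-subunit genes were higher and 4 lower, and 7 of 32 small-subunit genes were higher and 2 lower, where 59.2% of all genes were called. By RPKM, 0 and 2 were higher and 4 and 1 lower, where 46.5% were called. With library totals, 22 of 45 and 21 of 32 were higher and 0 lower, where 60.3% were called.

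Among the other ribosomal protein paralogs, Rps27l, the paralog of Rps27 and a target of p53, was the one called most often. By exon counts with TMM it was lower in IP in 6 of 6 protocols in which it was tested, by 0.58 in SMTseq4, 0.61 in Tru4, 0.62 in SMTseq0.25, 0.66 in Tru70, 1.51 in NuG and 1.62 in NEB on the log2 scale, with adjusted p from 5.99e-05 to 0.0483 by edgeR. By RPKM it was below 0 in 7 of 7 protocols and passed in SMTseq0.25 (-0.88, adjusted p = 0.0196 by limma) and SMTseq4 (-0.78, adjusted p = 0.0397 by limma) alone. With library totals it passed in 0 of 6 protocols and was at 0.063 in NuG.

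Rpl7l1, a paralog of Rpl7, was lower in SMTseq4 by exon counts (-0.63, adjusted p = 0.0107 by edgeR) and in SMTseq0.25 by RPKM (-1.06, adjusted p = 0.0451 by limma). In NuG it was higher by RPKM (0.85, adjusted p = 0.0103 by limma). Rpl36al, a paralog of Rpl36a, was lower in NuG with TMM (-0.83, adjusted p = 0.0017 by edgeR) and higher there with library totals (0.75, adjusted p = 0.0025 by edgeR). Rpl39l, a paralog of Rpl39 that is named here after its values were seen, was called higher in IP by exon counts in SMTseq0.25, SMTseq4 and Tru4 (adjusted p = 0.0088, 0.0002 and 0.0016 by edgeR). It had at most 0, 1 and 1 counts in an input library of these protocols and at most 73, 53 and 40 in an IP library, so no fold is given.

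Of 5 genes linked to Rpl22 and Rpl22l1, 4 were tested in Tru70 and 3 were higher in IP, where 34.8% of all genes passed in either direction. Mdm4, an inhibitor of p53, was higher by 1.03 (SE 0.21; adjusted p = 0.0043 by edgeR). Smad1 and Smad2, signal transducers of the TGF-beta superfamily, were higher by 1.23 (SE 0.29; adjusted p = 0.0104 by edgeR) and 1.40 (SE 0.33; adjusted p = 0.0099 by edgeR). Trp53, which encodes p53, was at 0.19 (SE 0.37; adjusted p = 0.755 by edgeR). Lin28b, a repressor of let-7 processing, could not be tested.

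By exon counts with TMM, Mdm4 was higher in NuG, SMTseq0.25, SMTseq4 and Tru4 too, Smad1 in NuG, SMTseq4 and Tru4, and Trp53 in Tru4, beside 44.9%, 36.9%, 59.2% and 50.1% of all genes called in these 4 protocols. Smad2 passed on that scale in Tru70 alone. By RPKM all 4 genes were higher in NuG, where 48.1% of all genes were called, with Smad2 at 0.93 (adjusted p = 0.0083 by limma). With library totals Smad2 was higher in NuG, SMTseq0.25, SMTseq4, Tru4 and Tru70. Kupffer and hepatocyte markers moved with the same contrast, and their part in these values was not tested.

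Over the 36 libraries outside SMTer, 10867 genes with a mean of at least 5 CPM were ordered by how closely their log2 CPM followed each member. Rpl22 was followed most closely by Rplp1 (Pearson's r = 0.92), a protein of the ribosomal stalk, CT010467.1 (0.91), Rpl41 (0.90), Gm5963 (0.90) and Gm10073 (0.90). Rplp1 had the same order of mice, with a median ratio of IP to input of 3.90 in mouse 1, 1.38 in mouse 2 and 1.12 in mouse 3. Rpl22 and Rpl22l1 did not follow each other (r = 0.09), and Rpl22l1 was 6435th of the genes in this order. The libraries share mice, kits and depth, so these values describe the 36 libraries and carry no test.

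Rpl22l1 was followed most closely by ENSMUSG00000059511 (r = 0.94), Gm9790 (0.94), Tma7 (0.93), Relch (0.91) and Lppos (0.90). All 5 had 0 to 8 counts in the NEB IP libraries of mice 1 and 2, where Rpl22l1 had 1 and 3. Without the 6 NEB libraries, an order added after seeing the data, their r fell to between 0.37 and 0.69, and that of Rpl22 with Rpl22l1 rose to 0.57. The closest genes were then Mrpl52 (0.84), a protein of the mitochondrial ribosome, and Cox4i1 (0.83), a subunit of cytochrome c oxidase. Rplp1 stayed closest to Rpl22 without NEB (r = 0.98).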

How the data were processed

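Liver RNA of 3 mice was sequenced as input and IP with 7 protocols. Per the labels and the methods, the authors took adapters off (Trimmomatic), cut all reads to 60 bases (FASTX Toolkit 0.0.13) and mapped every library to GRCm38 by TopHat 2.0.8, using the Ensembl 84 annotation. The deposited exon counts are whole read pairs per gene, not normalized, and the deposited RPKM values are the authors' reads per kilobase, scaled to the mapped reads. The methods name HTSeq and Bedtools 2.7.1 for counting and do not say how these treated strand. The authors state elsewhere that strand was not analysed. Checked on the values, the RPKM length was that of the gene from start to end, and 86.7% of values gave whole reads within 0.05 of a read, both members in all libraries.

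Members, lists and tests were chosen with earlier results of these data known. Fractions of mouse 3 were exchanged in NEB, NuG, SMTer and Tru4. Exon counts were tested per protocol with edgeR 4.0.16 (quasi-likelihood, TMM, filterByExpr) in R 4.3.3, with SE taken as the log2 difference over the square root of F. RPKM values were tested with limma 3.58.1 on log2(RPKM + 0.1) for genes with a mean RPKM of at least 0.1, a scale on which changes of low genes are understated. The p-values were adjusted by Benjamini-Hochberg over all genes tested, with a threshold of 0.05. Levels and differences of change against Tru70 came from fits of 12 libraries, and paralog ratios were compared by exact permutation tests. The alternatives were DESeq2 1.42.0, its size factors, other filters and pseudocounts, the replicate block, the fractions as labelled and leaving out each mouse, with library totals, reads over the gene and likeness without NEB added after seeing the data. The replicate number is the mouse in the labels, so the numbers pair the libraries, and the deviations of libraries of a mouse correlated at 0.03 to 0.49, over 0.1 in 15 of 21 pairs. The CPM values were computed here on the exon total of a library, and the depth limits precision, with 3 counts taken as the floor, 0.0660 to 0.931 CPM outside SMTer and 3.93 to 6.46 CPM in SMTer. Counting error alone is covered by the floor. Tests were tried on simulated data. Gene structures, coordinates and sequences came from GENCODE M21 on GRCm38. Genes were named by rule: the members, the fixed lists with at most 4 examples each, Gfi1, overlapping genes and pseudogenes, and the 5 genes most like each member.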

Additional observations from a re-analysis of the deposited data

How the results depend on the processing

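Of 67 results on the members 8 were called, and of 468 alternatives 372 kept the direction and the side of the threshold, 73 turned the direction, 1 of them to a called value, 12 lost a call and 11 gained one. All values are log2 differences, and the cause was not tested where none is named. With library totals in place of TMM, IP against input by exon counts turned for Rpl22 in NEB (0.038), NuG (0.84), Tru4 (0.29) and Tru70 (0.35) and for Rpl22l1 in NuG (0.51), SMTseq0.25 (0.44), SMTseq4 (0.50) and Tru4 (0.12), and Rpl22 passed in SMTseq0.25 (1.08) and SMTseq4 (0.98). The size factors of DESeq2 turned Rpl22 in Tru70 (0.0090) and Rpl22l1 in SMTseq0.25 (0.0035) and DESeq2 itself the same genes (0.0092 and 0.0038). Without a filter Rpl22 in NuG passed (-0.64), and with a pseudocount of 1 RPKM Rpl22 in SMTseq4 was 0.0062. Reads over the gene with edgeR turned IP against input for Rpl22 in NuG (-0.73), SMTseq4 (0.32), Tru4 (-0.14) and Tru70 (-0.14) and for Rpl22l1 in NuG (-0.68), SMTseq0.25 (0.049) and SMTseq4 (0.17), and both passed in SMTer (-1.25 and -1.15). Against Tru70 they turned the NEB levels of Rpl22 (0.088 in input, 0.16 in IP) and the NuG IP level of Rpl22l1 (0.041), and Rpl22 in NuG input passed (-1.01). Exon counts per exonic length turned the paralog ratio in NuG (-0.24).

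With the fractions as labelled, IP against input turned for Rpl22 in NuG (0.20) and Tru4 (0.36) and Rpl22l1 in Tru4 (0.13) by counts, and for Rpl22 in NEB (0.28) and Rpl22l1 in NuG (-0.16), SMTer (0.13) and Tru4 (0.10) by RPKM. The paralog ratio in NuG was -0.62. Against Tru70 the NuG IP level of Rpl22 lost its call (-0.84), and the NuG IP level of Rpl22l1 (0.22), the Tru4 IP level of Rpl22 (0.061) and the differences of change of Rpl22 in NuG (0.16) and Tru4 (0.37) turned. With the fractions as labelled 0 genes were called in NEB, NuG and Tru4 on either readout and in SMTer by counts, and 1 in SMTer by RPKM.

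With the replicate block, which pairs the libraries of a mouse, Rpl22 passed in NuG (-0.83) and in SMTseq0.25 IP against Tru70 (-0.92). The block turned Rpl22l1 in Tru70 (-0.23), its NEB IP level against Tru70 (-0.999) and its differences of change in SMTseq0.25 (0.062) and SMTseq4 (0.052), and changed no other call of a member. Genes called by RPKM went from 1325 to 326 in NEB and from 1973 to 4725 in SMTer with the block, and to 585 without a filter and 6621 with reads over the gene in SMTer. Those reads called 4275 genes in NuG in place of 8924. DESeq2 called 2622 in place of 1350 in NEB by counts, and library totals called 9392 in place of 5569 in NuG and 325 in place of 1111 in SMTer.

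Leaving out each mouse in turn gave these ranges where a direction or call changed. IP against input by counts ranged for Rpl22 from -1.28 to -0.38 in NuG, -0.046 to 0.74 in SMTseq4, -0.71 to 0.14 in Tru4 and -0.42 to 0.22 in Tru70, and for Rpl22l1 from -0.22 to 0.19 in SMTseq0.25, -0.17 to 0.11 in SMTseq4, -0.88 to -0.028 in Tru4 and -0.73 to 0.50 in Tru70. By RPKM it ranged for Rpl22 from -0.51 to 0.13 in NEB, -0.0035 to 0.55 in NuG, -0.093 to 0.35 in SMTseq0.25, -0.26 to 0.14 in SMTseq4, -0.22 to 0.19 in Tru4 and -0.15 to 0.24 in Tru70, and for Rpl22l1 from -0.21 to 0.054 in SMTseq4, -0.21 to 0.070 in Tru4 and -0.50 to 0.29 in Tru70. The paralog ratio ranged from -0.53 to 0.077 in NEB, -0.40 to 0.37 in NuG, -0.18 to 0.42 in SMTer, -0.13 to 0.059 in SMTseq4, -0.13 to 0.0090 in Tru4 and -0.35 to 0.078 in Tru70. Against Tru70 the input level of Rpl22 ranged from -0.38 to 0.0054 in NEB, -1.65 to -1.59 in SMTseq0.25, -1.75 to -1.66 in SMTseq4 and -0.070 to 0.020 in Tru4, and that of Rpl22l1 from 2.60 to 2.66 in SMTseq0.25 and 2.42 to 2.62 in SMTseq4. The IP level of Rpl22 ranged from -1.25 to -1.08 in SMTseq4, and that of Rpl22l1 from -5.81 to 1.75 in NEB, -0.78 to 0.72 in NuG, 2.17 to 3.19 in SMTseq0.25, 2.13 to 3.22 in SMTseq4 and, against SMTseq4 in place of Tru70, -0.018 to 0.27 in SMTseq0.25. The difference of change of Rpl22l1 ranged from -0.48 to 0.58 in SMTseq0.25 and -0.46 to 0.60 in SMTseq4.

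Few exon counts limited SMTer, where neither member was tested by exon counts, and Rpl22l1 in NuG. SMTer had 30252348 to 49823890 mapped reads a library and NuG 10275877 to 18913046. What kept the exon counts of SMTer low was not tested. With 3 mice, a change that did not pass is not shown to be absent. The tests of a protocol share their mice with every other protocol, and all comparisons against Tru70 share its libraries.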

Other observations

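Pseudogenes of both members were also counted. Outside SMTer, Rpl22-ps1 on chromosome X had 0 to 256 exon counts with a median of 26.5, and Gm15421, the copy of Rpl22l1 on chromosome 5, had 85 to 1623. Gm13196, a copy of Rpl22 on chromosome 2, had 0 to 369, with a median of 15.0. Its RPKM was 6.71 to 32.5 in the same libraries.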
